A study of Mus musculus with 2 samples.

Results

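The respiratory chain genes described here are 102 of the 25289 gene columns counted by single-cell RNA sequencing of stroma from mouse bone marrow. They were taken by name: every gene starting with mt-, Nduf, Uqcr, Cox4 to Cox8 or Atp5, or with Sdh followed by a letter from a to d, leaving out names that contain -ps and the Ndufaf genes. Of the 102, 13 are encoded by the mitochondrial genome and 89 by nuclear chromosomes. The nuclear members are 38 genes named Nduf (complex I), 4 subunits of complex II, 8 genes of complex III, 18 of complex IV, 17 named Atp5 (the ATP synthase), and 4 Sdhaf genes, which encode assembly factors of complex II. The mt- genes were compared with the nuclear genes across the cell classes and along the pseudotimes that the authors deposited.

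The cells came from crushed femurs, tibiae and pelvis of mice whose strain the labels spell C56BL/6, aged 8 to 16 weeks, with no treatment or altered gene named. Tissue was digested with collagenase and dispase, sorted as CD31-CD45-Ter119- to leave out endothelial, white and red blood cells, and sequenced with inDrops, a droplet method for single cells. There is 1 group of 2 samples, Stroma1 (libraries 1.1 and 1.2) and Stroma2 (libraries 2.1, 2.2 and 2.3), and every comparison is between the authors' classes, or between segments of the authors' paths, within these samples. Nothing in the labels says that the samples came from separate mice, so the spread behind the p-values may be technical. With the sample as a term of the fit, that spread is how far class or segment differences disagree between these samples. The fit left 5 residual degrees of freedom for the classes and 2 for each path.

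The authors' filter passed 948 cells of Stroma1 and 1899 of Stroma2, with 1658990 and 3687913 counts in all and between 500 and 16562 counts a cell. No passing cell had more than 14.9% mt- counts, so the filter itself limits the highest shares. Within Stroma1 32 barcodes, and within Stroma2 203, occurred in more than 1 library, and 12 occurred in both samples; values with each barcode kept once per sample are given beside the main results. Of the 7 classes, Osteoblast progenitor held 404 cells, Pre-osteoblast/chondrocyte 91, Pro-osteoblast 347, Pro-chondrocyte 14, Adipocyte progenitor 463, Pre-adipocyte 211 and MSC 1317. MSC is the class with the most cells, lies at the start of all 3 paths, and served as the baseline. Stromal markers (Cxcl12, Lepr, Kitl and Adipoq) summed to 68790 and 70893 counts per 1000000 counts (CPM) in MSC. The osteoblast list (Runx2, Sp7, Col1a1, Ibsp and Bglap) summed to 209162 and 208037 CPM in Pro-osteoblast. It summed to 23616 and 20631 CPM in Pre-osteoblast/chondrocyte. In Osteoblast progenitor it summed to 3948 and 5897 CPM, below MSC at 6456 and 7140 CPM. The adipocyte list (Pparg, Cebpa, Lpl, Plin1 and Fabp4) summed to 4721 and 4523 CPM in Adipocyte progenitor and 3635 and 3964 CPM in Pre-adipocyte. Both were below MSC, at 6142 and 6010 CPM. These sums go against the labels of those 3 classes. The cartilage genes Sox9, Acan and Col2a1 were all at 0 in the 14 Pro-chondrocyte cells, which goes against that label, and that class was too small to test. The classes and pseudotimes may themselves rest on the genes described here, and fewer cells of a kind and less RNA per cell cannot be told apart in the summed counts.

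The respiratory chain passes electrons from NADH and succinate through complexes I to IV of the inner mitochondrial membrane to oxygen, and the proton gradient it builds drives the ATP synthase. Complexes I, III and IV and the ATP synthase are built from subunits of both genomes, while complex II is nuclear-encoded only. The mitochondrial genes are read as long joint transcripts that are cut into single messages, whereas each nuclear subunit has its own promoter, and many of those promoters are known to bind the factors NRF1, GABP (an ETS factor) and YY1. Mesenchymal progenitors of the marrow are known to rely largely on glycolysis, and to raise respiration when they turn into bone-forming cells in culture.

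The promoters of 5 nuclear members are shown because these genes carry results given further on. They do not stand for all members, and other genes that carry results, such as Cox4i1 and Atp5e, are not shown. Ndufa1 and Cox6a1 belong to the results for Pro-osteoblast, Uqcrh to those for Pre-osteoblast/chondrocyte, and Ndufs6 and Atp5j2 to those for Osteoblast progenitor. RefSeq gave 300 bases (250 before the start to 50 after it, build GRCm38.p6) for 74 of the 89 nuclear members. In the sequences below, all from minus-strand genes and written 5′ to 3′, capitals mark a match on either strand to the NRF1 core GCGCATGCG, the ETS core CCGGAAGT or the YY1 core AAGATGGCG, and lower case marks the rest.
Ndufa1, chrX:37191189-37191488: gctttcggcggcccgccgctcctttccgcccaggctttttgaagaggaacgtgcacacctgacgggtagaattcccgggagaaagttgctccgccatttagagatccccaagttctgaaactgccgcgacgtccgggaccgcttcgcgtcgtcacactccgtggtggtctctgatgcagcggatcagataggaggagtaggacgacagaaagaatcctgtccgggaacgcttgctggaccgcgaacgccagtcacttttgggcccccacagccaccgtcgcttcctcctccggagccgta
Cox6a1, chr5:115348909-115349208: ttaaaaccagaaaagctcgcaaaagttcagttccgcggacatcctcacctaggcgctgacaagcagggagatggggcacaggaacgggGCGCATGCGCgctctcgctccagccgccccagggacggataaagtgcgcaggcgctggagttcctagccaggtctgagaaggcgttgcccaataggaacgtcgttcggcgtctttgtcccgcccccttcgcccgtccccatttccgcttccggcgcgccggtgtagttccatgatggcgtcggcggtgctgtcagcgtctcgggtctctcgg
Uqcrh, chr4:116075021-116075320: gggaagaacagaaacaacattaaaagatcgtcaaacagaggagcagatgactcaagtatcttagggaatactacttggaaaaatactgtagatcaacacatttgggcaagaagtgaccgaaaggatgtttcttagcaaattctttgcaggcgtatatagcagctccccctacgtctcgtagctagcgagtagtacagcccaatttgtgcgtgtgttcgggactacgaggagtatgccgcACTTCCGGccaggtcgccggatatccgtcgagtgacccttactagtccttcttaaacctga
Ndufs6, chr13:73328433-73328732: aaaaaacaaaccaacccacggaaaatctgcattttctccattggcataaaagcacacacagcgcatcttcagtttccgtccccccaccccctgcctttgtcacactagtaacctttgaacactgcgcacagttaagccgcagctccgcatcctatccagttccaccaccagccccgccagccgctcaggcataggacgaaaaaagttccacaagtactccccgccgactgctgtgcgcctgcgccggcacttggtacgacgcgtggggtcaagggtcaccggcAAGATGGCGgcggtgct
Atp5j2, chr5:145191492-145191791: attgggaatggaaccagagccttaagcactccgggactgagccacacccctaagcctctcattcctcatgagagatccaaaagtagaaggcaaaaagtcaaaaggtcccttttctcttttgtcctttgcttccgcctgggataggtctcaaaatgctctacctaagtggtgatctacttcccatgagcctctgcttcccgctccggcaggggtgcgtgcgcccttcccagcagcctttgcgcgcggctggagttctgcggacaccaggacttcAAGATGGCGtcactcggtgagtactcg
Ndufa1 held none of the searched letters, Cox6a1 held the NRF1 core, which reads almost the same on both strands so that its matches overlap, Uqcrh held the ETS core on the reverse strand, and Ndufs6 and Atp5j2 held the YY1 core near the start. Of the 74 members the NRF1 core occurred in 8 (10.8%), against 1.95% of the 27025 genes of the RefSeq promoter table, with a gene of several windows counted once. The YY1 core also occurred in 8 (10.8%), against 1.64% of all genes. The ETS core occurred in 5 (6.76%), against 4.31%, and the TATA core TATAAA in 8 (10.8%), against 15.7%. A match describes the letters only, and a promoter without one says nothing about the factor.

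Summed over the members, the mt- share of counts differed between classes more than the nuclear share did. It was highest in Osteoblast progenitor and Pre-osteoblast/chondrocyte and lowest in Pre-adipocyte. In Osteoblast progenitor the 13 mt- genes took 7.23% of counts in Stroma1 and 6.90% in Stroma2 (7.06% ± 0.233, SD, n = 2 samples), against 4.32% and 4.31% in MSC (4.32% ± 0.00471). In Pre-osteoblast/chondrocyte they took 7.74% and 6.37% (7.05% ± 0.968). All 5 libraries of these classes, at 6.68% to 7.45% in Osteoblast progenitor and 5.68% to 8.69% in Pre-osteoblast/chondrocyte, lay above the 5 MSC libraries, at 4.16% to 4.47%. With each barcode kept once the means were 7.08% in Osteoblast progenitor, 7.13% in Pre-osteoblast/chondrocyte and 4.32% in MSC. The number of cells with over 10% mt- counts was 36 of 144 in Stroma1 (25%, exact 95% interval 18.2% to 32.9%) and 40 of 260 in Stroma2 (15.4%, 11.2% to 20.4%) for Osteoblast progenitor. For MSC it was 11 of 502 (2.19%, 1.10% to 3.89%) and 17 of 815 (2.09%, 1.22% to 3.32%). Leaving those cells out gave a mean mt- share of 6.11% in Osteoblast progenitor and 4.19% in MSC.

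The other classes lay near or below MSC in their raw mt- share. Adipocyte progenitor had 4.06% and 4.05%, below both MSC values. Pre-adipocyte had 2.73% and 3.11% (2.92% ± 0.269), and its 5 libraries, 2.73% to 3.47%, all lay below those of MSC. Pro-osteoblast had 4.18% and 3.74% (3.96% ± 0.314), and the 14 cells of Pro-chondrocyte had 3.31% and 4.16%. The Pro-osteoblast share depends on what it is divided by, because Col1a1, Col1a2 and Sparc, which encode bone matrix proteins, took 44.5% and 48.9% of the Pro-osteoblast counts, against 1.27% and 1.34% in MSC. With these 3 genes left out of the total, the mt- share was 7.54% and 7.32% in Pro-osteoblast, against a mean of 4.37% in MSC.

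The nuclear members as a sum ran in nearly the same order with smaller distances. They took 1.43% and 1.35% of counts in Osteoblast progenitor (1.39% ± 0.058) and 1.52% and 1.42% in Pre-osteoblast/chondrocyte (1.47% ± 0.0706), against 1.17% in both samples of MSC. Both classes lay above every MSC library. Pre-adipocyte, at 0.862% and 0.776%, lay below every MSC library, and Adipocyte progenitor, at 1.07% and 1.12%, overlapped with them over its libraries. Pro-osteoblast had 1.06% and 0.895%, and with the 3 matrix genes left out of the total 1.91% and 1.75%, against a mean of 1.19% in MSC. In counts per cell the mean of the 2 samples was 182 mt- and 44.9 nuclear counts in Pro-osteoblast, 143 and 29.7 in Pre-osteoblast/chondrocyte, 111 and 21.9 in Osteoblast progenitor, and 58.5 and 15.9 in MSC. Counts per cell therefore put Pro-osteoblast highest on both measures, where shares of all counts put it below MSC. Counts per cell also depend on depth. The median of all counts a cell was 4422 and 4201 in Pro-osteoblast, against 1377.5 and 1160 in MSC. The share of ribosomal protein genes differed as well, at 5.56% and 5.82% of counts in Osteoblast progenitor, 10.4% and 9.53% in Pre-osteoblast/chondrocyte and 6.67% and 5.69% in Pro-osteoblast, against 3.8% and 3.71% in MSC; its part in the results for these 3 classes was not tested.

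**Figure D1:**
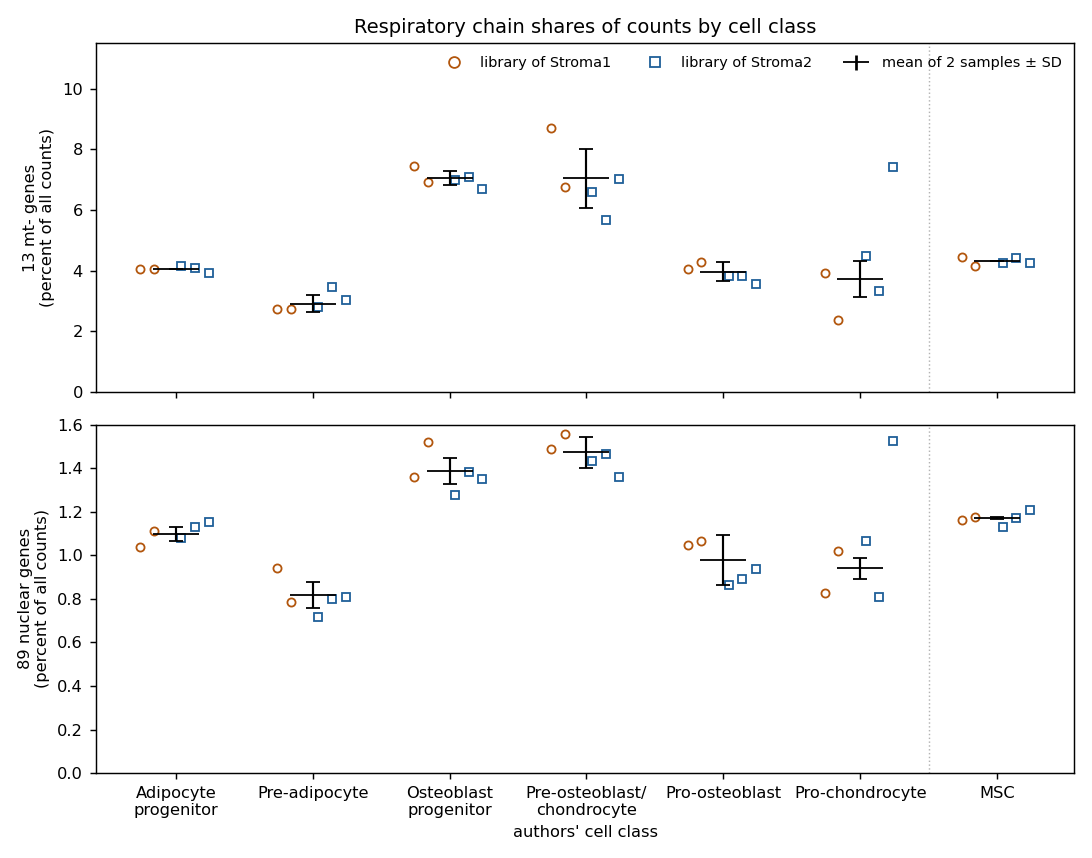
Share of all counts taken by the 13 mt- genes (upper panel) and the 89 nuclear members (lower panel) in each of the authors' classes, in percent; each symbol is 1 library, and the bar is the mean ± SD of the 2 samples. The 5 libraries of Osteoblast progenitor lie above the 5 MSC libraries in both panels, while the mean of Pro-osteoblast lies below MSC on this scale and above it when Col1a1, Col1a2 and Sparc are left out of the total.

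Set against each other, the mt- sum differed from MSC by more than the nuclear sum did in Osteoblast progenitor. The log2 ratio of mt- to nuclear counts, minus that of MSC in the same sample, was 0.45 in Stroma1 and 0.48 in Stroma2 (0.47 ± 0.02, SD, n = 2), and lay between 0.37 and 0.54 in the 5 libraries. This ratio does not depend on the total it is divided by. Pre-osteoblast/chondrocyte had 0.46 and 0.28, over a wide 0.04 to 0.60 in its libraries, and Pro-osteoblast had 0.10 and 0.18, from 0.02 to 0.24. Every library of these 3 classes was above MSC. Adipocyte progenitor (0.03 and -0.03) and Pre-adipocyte (-0.23 and 0.12) had opposite signs in the 2 samples, so no direction could be given. With 2 pairs of sums an exact sign-flip permutation test, 2-sided, cannot go below a p of 0.5, and the sums were not tested. With each barcode kept once the ratio was 0.47 in Osteoblast progenitor, and it was 0.30 among cells with under 10% mt- counts.

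**Figure D2:**
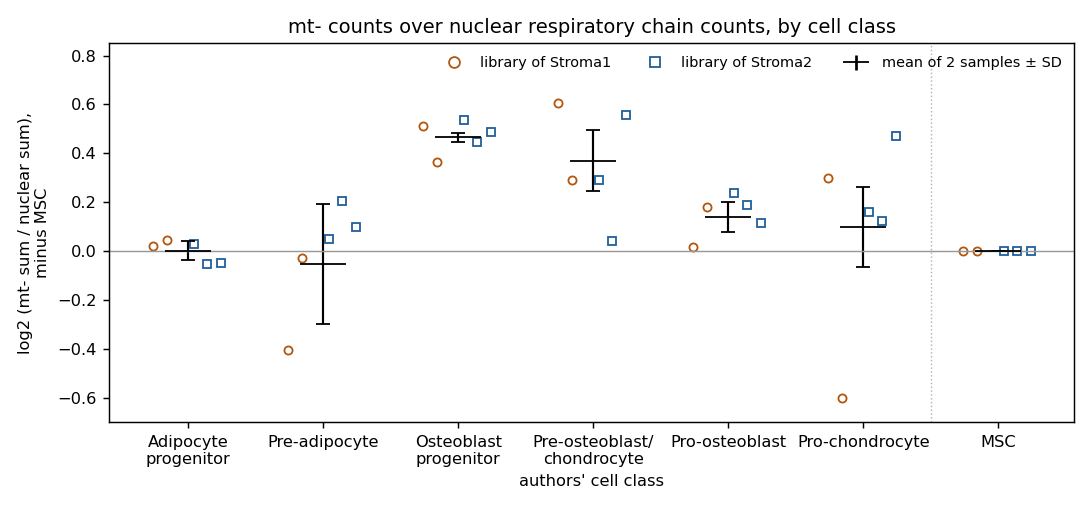
Log2 of the summed mt- counts over the summed nuclear member counts, minus the same value of MSC (within the library for symbols, within the sample for the mean ± SD of 2 samples). Osteoblast progenitor lies between 0.37 and 0.54 in its 5 libraries, and the 2 adipocyte classes lie on both sides of 0.

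The 12 mt- genes with enough counts for a test moved together in Osteoblast progenitor. Tests used edgeR's quasi-likelihood fit on counts summed per sample and class, with log2 changes scaled by TMM factors and p-values adjusted by Benjamini-Hochberg over all 6229 genes tested; a gene with an adjusted p under 0.05 is called higher or lower. All 12 were called higher than in MSC, with a median log2 change of 0.72, where 4.62% of all genes were called higher and 3.31% lower. The changes ran from 0.45 for mt-Nd5 to 1.13 for mt-Atp8, with the same direction in both samples for all 12, and 11 of the 12 were also called on the scale of total counts. On that scale 254 of all 6229 genes were called higher and 230 lower. None of the 12 was lower at an unadjusted p under 0.05 either, and DESeq2 called 10 of them higher and none lower. All comparisons with MSC share the MSC sums.

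After mt-Atp8, the largest changes were those of mt-Co3 and mt-Cytb. mt-Co3 (ENSMUSG00000064358.1, chrM:8607-9390, plus strand, in GRCm38 with GENCODE M21, as for all positions of genes) encodes a core subunit of complex IV, cytochrome c oxidase. It had 5813 and 5511 CPM in Osteoblast progenitor, against 3095 and 2976 CPM in MSC. Both Osteoblast progenitor values were above both MSC values, with a log2 change of 0.93 ± 0.13 (SE, adjusted p = 1.1e-08). mt-Cytb, the cytochrome b of complex III, had 10125 and 8778 CPM, against 5337 and 4970 CPM in MSC, a log2 change of 0.91 ± 0.13 (adjusted p = 7.4e-08). mt-Co1 and mt-Co2, which hold the metal centres of complex IV, had log2 changes of 0.73 and 0.70.

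The complex I genes of the mitochondrial genome spanned a range. mt-Nd3 and mt-Nd4l, small membrane subunits, changed by 0.85 and 0.87, mt-Nd4, mt-Nd1 and mt-Nd2 by 0.68, 0.64 and 0.62. mt-Nd5, a large membrane subunit at the far end of the proton-pumping arm, had 608 and 663 CPM in Osteoblast progenitor, against 484 and 475 CPM in MSC, and the smallest change (0.45 ± 0.14, adjusted p = 0.026). It was the smallest of the tested mt- changes in Pre-osteoblast/chondrocyte as well (0.55). Of the ATP synthase genes, mt-Atp6 changed by 0.72 and mt-Atp8 by 1.13 ± 0.35 (adjusted p = 0.027). mt-Atp8 had few counts, at 83.8 and 113 CPM against 43.9 and 48.7 CPM in MSC, and it shares 43 bases with mt-Atp6, so reads in the overlap are uncertain. mt-Nd4l shares 7 bases with mt-Nd4, and mt-Nd6, the only member on the other strand, shares 14 bases with mt-Nd5. mt-Nd6 had 32 counts over all passing cells and was not tested.

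The nuclear members passed the test in Osteoblast progenitor about as often as all genes did. The edgeR test called 3 of 76 higher and none lower, where 4.62% of all genes were called higher and 3.31% lower, with a median log2 change of 0.23 and 58 of 76 above 0. At an unadjusted p under 0.05, 15 were higher and 1 lower, and DESeq2, which gave 75 of them an adjusted p, called 1 higher (Cox4i1) and none lower. The 3 were Cox4i1, Ndufs6 and Atp5j2. Cox4i1 (ENSMUSG00000031818.12, chr8:120668222-120674207, plus strand) encodes the widely expressed form of subunit 4 of complex IV. It had 888 and 995 CPM in Osteoblast progenitor, against 538 and 548 CPM in MSC (0.84 ± 0.13, adjusted p = 1.1e-06). Its values did not overlap with those of MSC, and its change lay within the range of the mt- genes. Its exons share 154 of 1550 bases with Emc8 on the opposite strand, and whether counting used strand is not given in the sources used here. Ndufs6, a zinc-binding subunit of the matrix arm of complex I, had 243 and 198 CPM, against 130 CPM in both samples of MSC (0.78 ± 0.25, adjusted p = 0.039). Atp5j2, the f subunit of the ATP synthase, had 243 and 257 CPM, against 159 and 148 CPM (0.76 ± 0.22, adjusted p = 0.015). Without the filter on low counts Cox4i1 remained called and Ndufs6 and Atp5j2 did not. With total counts Ndufs6 was at 0.74 (adjusted p = 0.058 by edgeR). The lowest change was -0.70 for Uqcr11, which was not called. Ndufa4, Sdha and Atp5g3, which code for a small subunit now placed in complex IV, the flavin subunit of complex II and a ring subunit of the ATP synthase, had changes of -0.02, -0.33 and 0.15, and none was called. In library 2.2 the cells of this class held myeloid markers at a summed 1067 CPM, against 8.33 CPM in its MSC cells (4 of 6 markers were detected in Stroma2, with Elane and Mpo at 0). In the other 4 libraries they summed to 7.31 to 33.5 CPM, against 5.43 to 63.8 CPM in MSC, and the mt- share of these 4 was 6.68% to 7.45%.

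Pre-osteoblast/chondrocyte, with 25 and 66 cells, showed mt- genes and a larger number of nuclear genes higher than MSC. By edgeR, of 12 mt- genes 11 were called higher and none lower (median log2 change 0.92), and of 76 nuclear genes 12 were called higher and none lower (median 0.46), where 9.36% of all genes were called higher and 8.62% lower. None of either was lower at an unadjusted p under 0.05, DESeq2 called 9 and 9 higher and none lower, and without the filter on low counts 2 nuclear genes were called. With each barcode kept once the counts were 9 mt- and 11 nuclear genes. mt-Co3 had 6628 and 5078 CPM, against 3095 and 2976 CPM in MSC (1.11 ± 0.14, adjusted p = 1.7e-10). mt-Nd2 and mt-Cytb followed with 1.01 and 0.99, and mt-Atp8, at 1.05 ± 0.52 (adjusted p = 0.17), was the gene not called. Stroma1 had the higher value for each of mt-Co3, mt-Cytb and mt-Nd2, and both samples were above MSC.

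Among the nuclear genes called in this class, 3 were of complex III, and 1 of these had the highest change. Uqcrfs1, the Rieske iron-sulfur protein that takes electrons from ubiquinol, had 145 and 134 CPM, against 53.5 and 70.2 CPM in MSC (1.31 ± 0.43, adjusted p = 0.019). Uqcrh, the hinge protein beside cytochrome c1, had 507 and 393 CPM, against 222 and 228 CPM (1.14 ± 0.25, adjusted p = 0.00019), and Uqcrq, a small subunit, had 199 and 234 CPM, against 145 and 90.6 CPM (1.14 ± 0.34, adjusted p = 0.0098). Values of the 3 genes were higher than in MSC in both samples. Ndufab1, the mitochondrial acyl carrier protein that is also part of complex I, changed by 1.18 ± 0.41 (adjusted p = 0.034), with 235 CPM in Stroma1 and 100.2 CPM in Stroma2, against 82.3 and 70.2 CPM in MSC. Cox4i1 had 1250 and 877 CPM and a change of 1.09. The other 7 genes called were Cox7a2l (1.13), Atp5g2 (0.96), Cox7c (0.94), Atp5j (0.93), Atp5b (0.93), Ndufb11 (0.92) and Cox6c (0.59); by complex the 12 were 4 of complex IV, 3 of complex III, 3 of the ATP synthase and 2 of complex I. Sdha (0.13) and the other complex II genes were not called. The total counts scale moved the median of all genes to -0.27 here, and 7 nuclear genes were called on it, all higher. Of all 6229 genes, 448 were called higher and 683 lower on that scale.

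**Figure D3:**
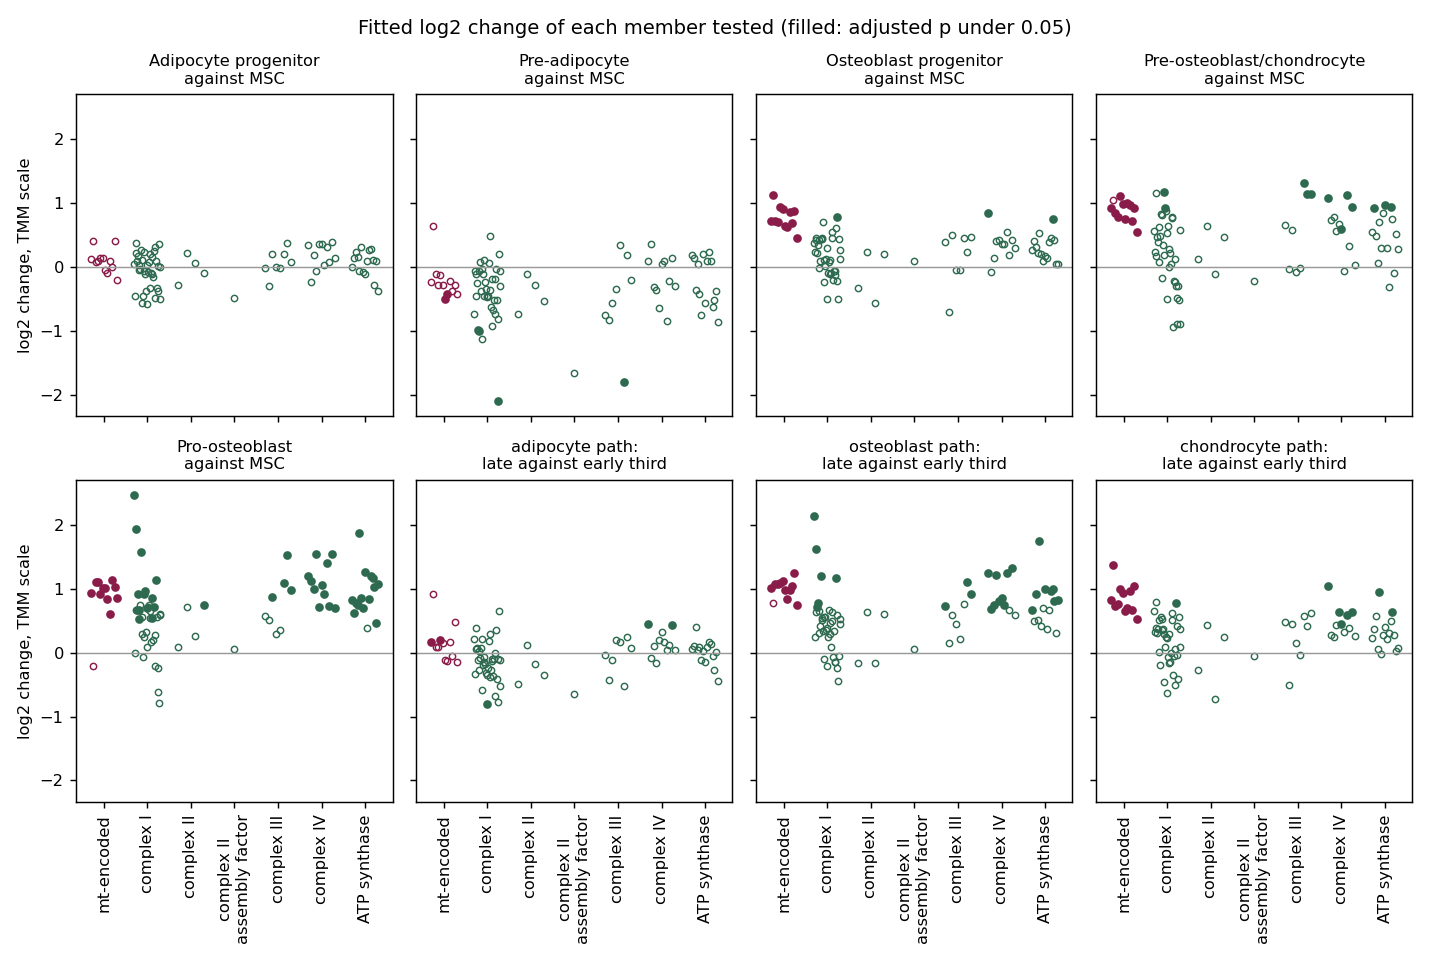
Fitted log2 change on the TMM scale of each member tested, by role, in the 5 class comparisons with MSC and the 3 path comparisons (late segment against early segment); filled symbols have an adjusted p under 0.05. The mt- genes stand close together near 0.72 in Osteoblast progenitor, while the nuclear genes spread around a median of 0.23; on the scale of total counts most members turn below 0 in Pro-osteoblast, and in the osteoblast path nuclear members do so at the median.

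In Pro-osteoblast the direction of most members depends on the scaling. TMM factors were 0.590 and 0.506 in Pro-osteoblast, against 1.25 in both samples of MSC, and total counts in place of TMM moved the median of all genes to -1.24, against 0.01 with TMM. On the TMM scale edgeR called 11 of 12 mt- genes and 44 of 76 nuclear genes higher and none lower, where 19.9% of all genes were called higher and 18.7% lower. None was lower at an unadjusted p under 0.05, and DESeq2 called 10 mt- and 26 nuclear genes higher and none lower. On total counts 4 mt- genes were called lower and none higher (also none at an unadjusted p under 0.05), and 37 nuclear genes were called lower and 2 higher. Of all 6229 genes, 4007 were called lower and 408 higher on that scale. The change of scale shifts all genes by nearly the same amount, so it leaves their distance from the median of all genes about as it was. With TMM the mt- median lay 0.97 above that median and the nuclear median 0.70, and 11 of 12 mt- genes and 70 of 76 nuclear genes lay above it.

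The 2 nuclear genes called higher on both scales were Ndufa1 and Atp5e. Ndufa1 (ENSMUSG00000016427.7, chrX:37187588-37191163, minus strand) encodes a small membrane subunit needed to assemble complex I. It had 288 and 278 CPM in Pro-osteoblast, against 115 CPM in both samples of MSC. Its log2 change was 2.47 ± 0.21 with TMM (adjusted p = 1.4e-17) and 1.25 with total counts (adjusted p = 8.7e-07). It was the highest TMM change of any member in any class. Atp5e, the epsilon subunit in the central stalk of the ATP synthase, had 214 and 166 CPM, against 118 and 106 CPM (1.88 ± 0.23 with TMM, adjusted p = 5.5e-11, and 0.65 with total counts, adjusted p = 0.012). The values of Ndufa1 and Atp5e were above MSC in both samples even as raw CPM.

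By complex, on the TMM scale all 11 tested genes of complex IV and 14 of 15 of the ATP synthase were called higher, against 14 of 37 of complex I, 4 of 8 of complex III and 1 of 4 of complex II, where 19.9% of all genes were called higher. The difference between complexes was not tested. On total counts 1 gene of the ATP synthase (Atp5e) and 1 of complex I (Ndufa1) were called higher and 6, 22, 4 and 2 genes of the ATP synthase and complexes I, III and II lower, with 2 of complex IV. Of all 6229 genes, 408 were called higher and 4007 lower on that scale. Ndufa12 and Ndufa6, accessory subunits of complex I, changed by 1.93 ± 0.46 and 1.58 ± 0.24 with TMM and by 0.71 and 0.35 with total counts. Ndufa6 had 160 and 151 CPM, against 104 and 122 CPM in MSC. Cox6a1, the liver-type form of a complex IV subunit, had 417 and 345 CPM, against 284 CPM in both samples of MSC (1.54 with TMM, 0.32 with total counts). Uqcrh was at 1.53 with TMM (adjusted p = 2.2e-11) and at 0.30 with total counts. Cox4i1 had 604 and 525 CPM, against 538 and 548 CPM, so it was 1.19 with TMM and -0.03 with total counts. Sdha had 69.4 and 64.8 CPM, against 139 and 153 CPM, with 0.08 on the TMM scale and -1.16 with total counts.

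The mt- genes of Pro-osteoblast stood within a narrow band on the TMM scale, from 0.60 for mt-Nd3 to 1.14 for mt-Nd4, and on the total scale the same genes stood at -0.61 and -0.06. mt-Co3 had 2788 and 2401 CPM, against 3095 and 2976 CPM in MSC. mt-Nd4 had 4118 and 3987 CPM, against 4045 and 4103 CPM, and its ranges overlapped as raw values. mt-Atp8 was the exception, at 5.34 CPM in Stroma1 (1 count) and 20.7 CPM in Stroma2, against 43.9 and 48.7 CPM in MSC; it was not called on the TMM scale (-0.22, adjusted p = 0.73).

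**Figure D4:**
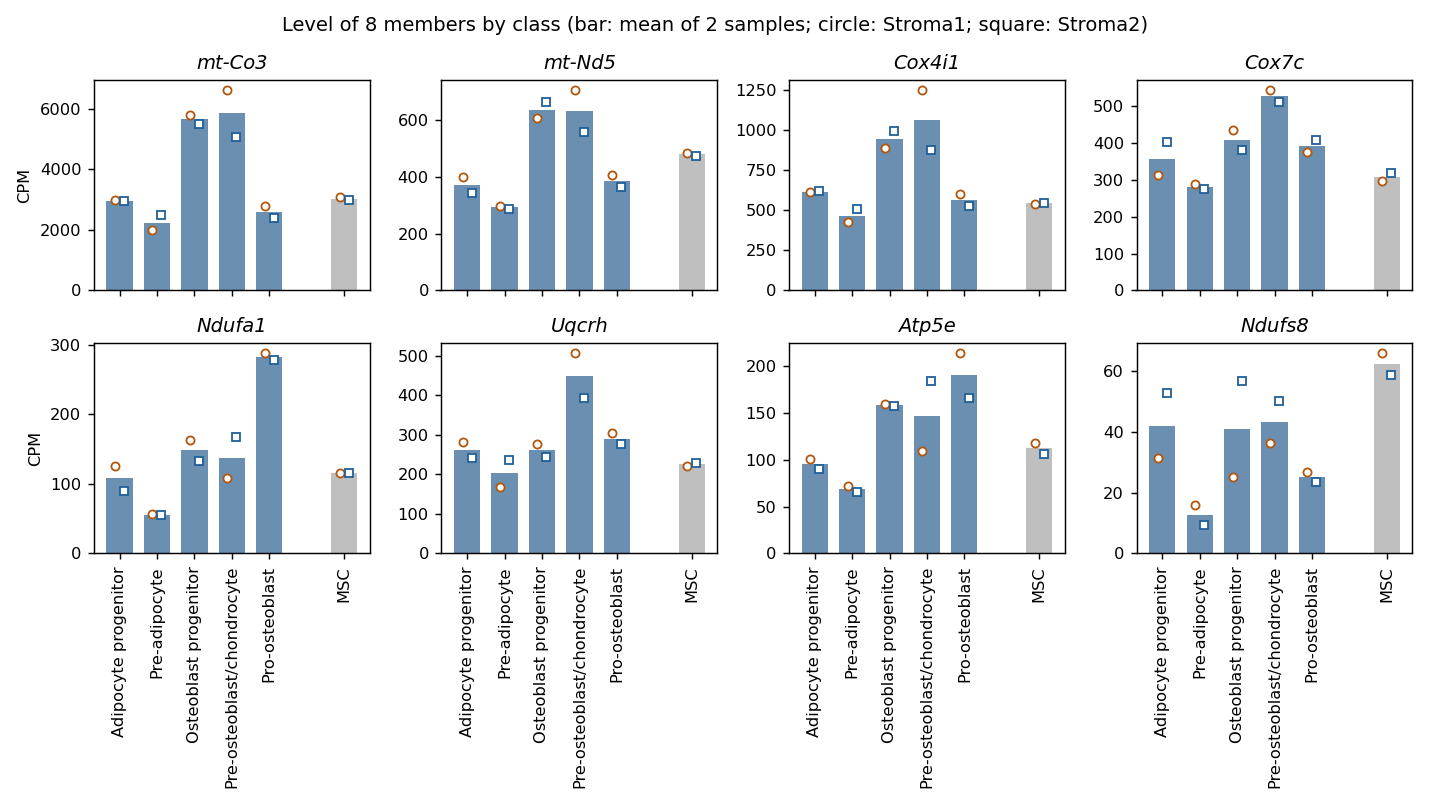
Level of 8 members in CPM of summed counts, by class; bars are means of 2 samples, circles Stroma1 and squares Stroma2. mt-Co3, mt-Nd5 and Cox4i1 are highest in Osteoblast progenitor and Pre-osteoblast/chondrocyte, Ndufa1 and Atp5e in Pro-osteoblast, and Ndufs8 is lowest in Pre-adipocyte, where it rests on a few counts. CPM is on the scale of total counts, on which Pro-osteoblast values stand lower than with TMM.

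The adipocyte classes differed from MSC at few members. In Adipocyte progenitor no mt- and no nuclear member was called in either direction by edgeR, where 3.95% of all genes were called higher and 0.225% lower. At an unadjusted p under 0.05 there were 0 mt- genes and 3 nuclear genes, all higher, and DESeq2 called none of the 12 mt- and 68 nuclear genes to which it gave an adjusted p. The medians were 0.09 for mt- genes and 0.04 for nuclear genes, and the extremes among nuclear genes were -0.58 for Ndufb3 and 0.39 for Cox7c. Cox4i1 had 613 and 618 CPM there, against 538 and 548 CPM in MSC (0.35 ± 0.14, adjusted p = 0.19). In Pre-adipocyte edgeR called 2 of 12 mt- genes and 4 of 76 nuclear genes lower and none higher, where 8.48% of all genes were called higher and 1.86% lower. No member was higher at an unadjusted p under 0.05, and DESeq2 called none in either direction. The medians were -0.29 and -0.34, and 19 of the 76 nuclear changes were above 0. When each cell took the class of most of its neighbours, found without the members, no nuclear gene was called.

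Of the 6 genes called lower in Pre-adipocyte 5 were of complex I, which has 37 of the 76 nuclear and 6 of the 12 mt- genes tested. mt-Nd1, a core membrane subunit at the ubiquinone site, had 1846 and 2491 CPM, against 3813 and 3836 CPM in MSC (-0.51 ± 0.14, adjusted p = 0.0069), and mt-Nd2 had 1099 and 1027 CPM, against 1746 and 1728 CPM (-0.42 ± 0.15, adjusted p = 0.047). Ndufs8, an iron-sulfur subunit on the electron path of complex I, had 16.0 and 9.29 CPM, against 65.8 and 58.5 CPM (-2.11 ± 0.69, adjusted p = 0.031). These 3 genes were below MSC in both samples. Ndufa2 and Ndufa3, accessory subunits, both changed by -1.0, with adjusted p of 0.017 and 0.027, and Uqcrfs1 had 8.02 and 18.6 CPM, against 53.5 and 70.2 CPM (-1.80 ± 0.61, adjusted p = 0.041). The Pre-adipocyte sums held only 124616 and 215170 counts. The values of Ndufs8 and Uqcrfs1 there therefore rest on a few counts each, and the size of their changes is uncertain. On total counts, which moved the median of all genes to -0.36 here, 8 mt- and 18 nuclear genes were called lower. Of the nuclear genes 5 were of complex I, 5 of the ATP synthase, 4 of complex III, 3 of complex IV and 1 of complex II. Of all 6229 genes, 407 were called higher and 524 lower on that scale. The class also held myeloid markers, at 4024 CPM in library 1.2, 16.1 CPM in library 1.1 and 731, 0 and 348 CPM in libraries 2.1 to 2.3, against 5.43 to 63.8 CPM in MSC (4 of 6 were detected in Stroma1, 3 of 6 in Stroma2). The mt- share was 2.73% in both library 1.1 and library 1.2. Cartilage markers summed to 104 and 1027 CPM, against 17.8 and 44.8 CPM in MSC; their part in these results was not tested.

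The tissue-restricted forms of subunits were near absent in these cells. Of the pairs of forms, Cox4i2, Cox6a2, Cox7a1, Cox8b and Ndufa4l2 had 15, 1, 7, 1 and 40 counts over all passing cells and did not pass the count filter, while the common forms Cox4i1, Cox6a1, Cox7a2, Cox8a and Ndufa4 were tested. Heart- and muscle-type forms are known of Cox6a, Cox7a and Cox8, and Cox4i2 and Ndufa4l2 are known to respond to low oxygen. Among the common forms only Cox4i1 was called in Osteoblast progenitor or Pre-osteoblast/chondrocyte, with Cox6a1 at 0.40 and 0.57 and Cox7a2 at 0.36 and -0.06 on the TMM scale; the difference between forms was not tested. The testis-type genes Cox6b2, Cox7b2 and Cox8c had 25, 0 and 1 counts, and 6 further members, Atp5s, Atp5sl, Sdhaf1, Sdhaf3, Sdhaf4 and mt-Nd6, had 22 to 90 counts and were not tested either. In all, 88 of the 102 members passed the filter.

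Along the authors' paths the mt- share was highest near the end of the osteoblast and chondrocyte paths and lowest at the end of the adipocyte path, in 10 equal bins of each. On the chondrocyte path it stood at 3.95% and 3.58% in bin 1, 4.57% and 4.80% in bin 5, and 7.78% and 6.84% in bin 10. On the osteoblast path it stood at 3.91% and 3.60% in bin 1, was highest in bin 8 (7.79% and 7.39%), and was 4.06% and 3.58% in bin 10, or 7.80% and 7.21% there with Col1a1, Col1a2 and Sparc left out of the total. On the adipocyte path it stayed between 3.53% and 4.84% in bins 1 to 9 and was lowest in bin 10, at 2.61% and 3.08%. The nuclear share followed within narrower bounds, at 1.59% and 1.41% in bin 10 of the chondrocyte path, 1.53% and 1.38% in bin 8 of the osteoblast path, and 0.866% and 0.747% in bin 10 of the adipocyte path.

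**Figure D5:**
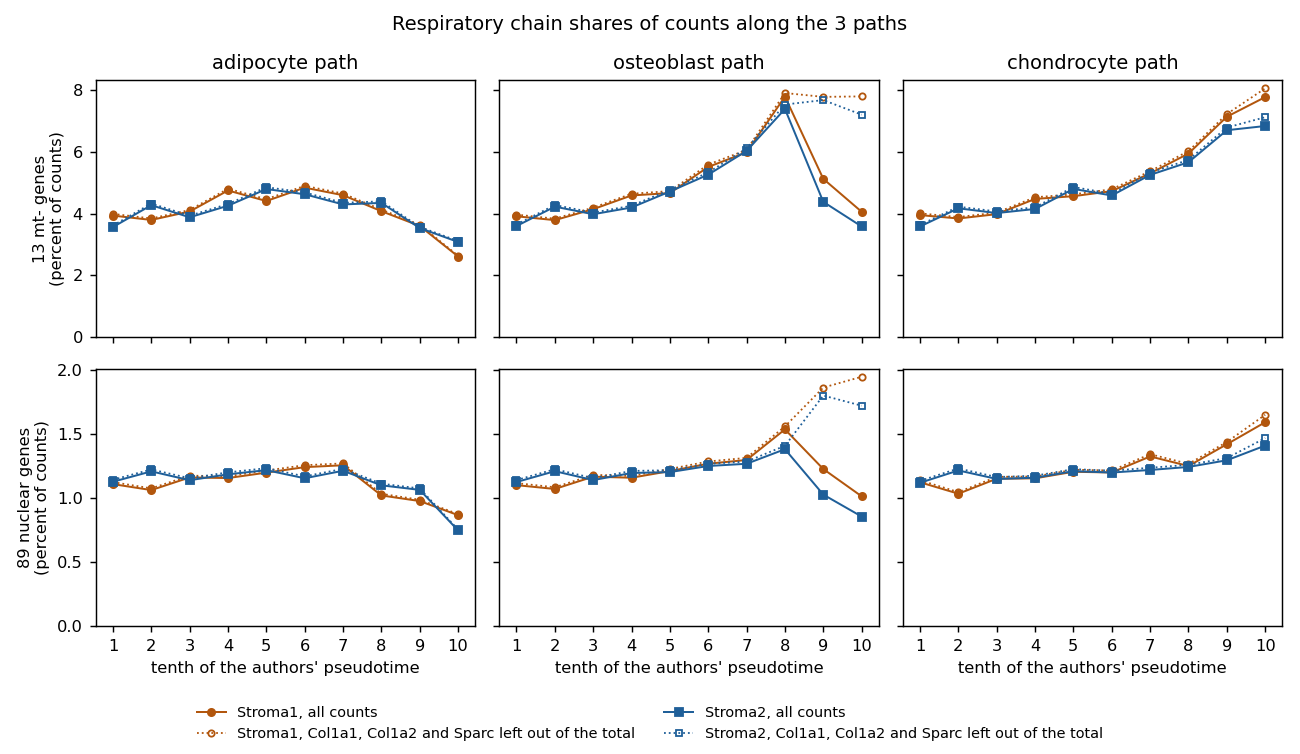
Share of counts taken by mt- genes (upper row) and nuclear members (lower row) in 10 equal bins of each of the authors' paths, in percent; solid lines use all counts and dotted lines leave Col1a1, Col1a2 and Sparc out of the total. The mt- share reaches 7.78% and 6.84% at the end of the chondrocyte path, and on the osteoblast path it stands at 7.79% and 7.39% in bin 8 and 4.06% and 3.58% in bin 10 with all counts, against 7.91% and 7.53% in bin 8 and 7.80% and 7.21% in bin 10 with the 3 genes left out.

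The paths were tested as the late against the early of 3 equal segments, whose early segments held 598 to 642 cells, 99.8% of them MSC, and had 598 cells in common. On the chondrocyte path, whose late segment held 62.7% Osteoblast progenitor, 16.1% MSC and 14.7% Pre-osteoblast/chondrocyte cells, the mt- share was 6.72% and 6.41% late, against 3.97% and 3.94% early. By edgeR all 12 mt- genes were called higher and none lower (median 0.79), with 8 of 76 nuclear genes higher and none lower (median 0.30), where 7.35% of all genes were called higher and 6.29% lower. At an unadjusted p under 0.05 no mt- gene and 2 nuclear genes were lower, and DESeq2 called 10 mt- genes and 1 nuclear gene (Cox4i1) higher and none lower. The mt- changes ran from 0.53 for mt-Nd5 to 1.37 for mt-Atp8. Cox4i1 again led the nuclear genes, with 915 and 898 CPM late, against 412 and 497 CPM early (1.04 ± 0.12, adjusted p = 1.4e-07). Atp5e had 148 and 169 CPM, against 90.6 and 84.2 CPM (0.94 ± 0.24, adjusted p = 0.0065), and Ndufs5, a subunit on the intermembrane-space side of complex I, had 117 and 128 CPM, against 62.5 and 84.2 CPM (0.78 ± 0.27, adjusted p = 0.048). Atp5j2 changed by 0.64, and the other 4 genes called, Cox7c (0.64), Cox6b1 (0.64), Cox7a2l (0.60) and Cox6c (0.45), are all of complex IV by name. With each barcode kept once 12 mt- and 11 nuclear genes were called.

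On the osteoblast path, whose late segment held 54.0% Pro-osteoblast and 38.8% Osteoblast progenitor cells, the raw shares split the samples. The mt- share was 5.70% and 4.33% late, against 4.01% and 3.96% early, and the nuclear share was 1.26% and 0.982% late, against 1.11% and 1.17% early, so it was higher in Stroma1 and lower in Stroma2. On the TMM scale edgeR called 11 of 12 mt- genes and 26 of 76 nuclear genes higher and none lower (none at an unadjusted p under 0.05), where 12.9% of all genes were called higher and 11.8% lower; DESeq2 called 10 mt- and 9 nuclear genes higher and none lower. With the late against the early of 2 equal segments, 1 mt- gene and 9 nuclear genes were called. On total counts, which moved the median of all genes to -0.79, edgeR called no mt- gene (none at an unadjusted p under 0.05) and 2 nuclear genes higher and 7 lower. Of all 6731 genes, 323 were called higher and 2238 lower on that scale. With TMM the mt- median lay 1.03 above the median of all genes and the nuclear median 0.59, a distance that the change of scale leaves about as it was. Ndufa1 had 220 and 254 CPM late, against 81.5 and 101 CPM early (2.14 ± 0.26 with TMM, adjusted p = 2.9e-06, and 1.35 with total counts). Atp5e had 182 and 169 CPM, against 98.4 and 80.6 CPM (1.75 ± 0.27 with TMM, adjusted p = 4.2e-05, and 0.97 with total counts). Cox7c, a small subunit of complex IV, had 422 and 413 CPM, against 245 and 314 CPM (1.32 with TMM, 0.55 with total counts). Each of these was above the early values in both samples as raw CPM.

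On the adipocyte path, whose late segment held 63.7% Adipocyte progenitor and 33.3% Pre-adipocyte cells, the mt- share was 3.59% and 3.71% late, against 4.00% and 3.94% early, and the nuclear share was 0.997% and 0.987% late, against 1.11% and 1.17% early. With TMM edgeR called 2 of 12 mt- genes higher and none lower (none at an unadjusted p under 0.05), and of 77 nuclear genes 2 were called higher and 1 lower, where 8.73% of all genes were called higher and 3.58% lower. DESeq2 called none of the 12 mt- and 72 nuclear genes with an adjusted p. For the mt- genes called, the direction rests on the scaling: mt-Atp6 and mt-Co3 changed by 0.17 and 0.21 with TMM and by -0.04 and -0.0048 with total counts, on which mt-Nd1, mt-Nd2 and mt-Nd4 were called lower. Of all 7048 genes, 448 were called higher and 628 lower with total counts. Cox4i1 had 537 and 554 CPM late, against 434 and 483 CPM early (0.45 ± 0.12 with TMM, adjusted p = 0.0065, and 0.24 with total counts). Cox7c had 318 and 344 CPM, against 249 and 308 CPM (0.44 with TMM, 0.23 with total counts). Ndufb3, an accessory subunit of complex I, had 84.2 and 45.1 CPM, against 121 and 126 CPM (-0.81 with TMM, adjusted p = 0.044, and -1.02 with total counts).

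Other genes that serve the respiratory chain were read from the same fits. Slc25a5, an ADP/ATP carrier of the inner membrane, was called higher in all 8 comparisons on the TMM scale, from 0.61 in Adipocyte progenitor and Osteoblast progenitor to 1.5 in Pro-osteoblast, and its change was above 0 with total counts too, from 0.28 to 1.07. Slc25a3, the phosphate carrier, was called higher in Osteoblast progenitor (0.62), Pre-osteoblast/chondrocyte (0.97) and, with TMM, Pro-osteoblast (1.10, but -0.14 with total counts). Of 12 tested electron carriers and transporters, 5 were called higher in Pro-osteoblast with TMM (19.9% of all genes were), against none higher and 6 lower with total counts (408 and 4007 of all 6229 genes). With TMM 2 were called higher in Osteoblast progenitor (4.62% of all genes), 2 in Pre-osteoblast/chondrocyte (9.36%), 1 in Adipocyte progenitor (3.95%) and 1 in Pre-adipocyte (8.48%); edgeR called none lower with TMM in these classes, and at an unadjusted p under 0.05 the only lower one was in Pre-osteoblast/chondrocyte. Assembly factors, of which 12 of 39 could be tested in the classes, gave 1 call each in Pre-osteoblast/chondrocyte (Cox20, 1.26) and Pro-osteoblast (Cox14, 0.76, but -0.47 with total counts), both higher. In these classes 9.36% and 19.9% of all genes were called higher. With total counts none was called higher and 5 lower in Pro-osteoblast (408 and 4007 of all 6229 genes). The other 3 classes gave no call with TMM. There 1 gene was higher (in Osteoblast progenitor) and 2 lower (in Pre-adipocyte) at an unadjusted p under 0.05. DESeq2 called no assembly factor among the 12 in each class, of which 6 in Adipocyte progenitor and 7 in Osteoblast progenitor had an adjusted p.

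Of the genes that copy and read mitochondrial DNA, 5 were tested in the classes. In Osteoblast progenitor none was called by edgeR, nor by DESeq2 among the 4 with an adjusted p, 1 was higher and 1 lower at an unadjusted p under 0.05, and the median was 0.47. Tfam, which packages and transcribes mitochondrial DNA, was lower in Pro-osteoblast (-1.33 with TMM, adjusted p = 0.014, and -2.58 with total counts). It had 5.34 and 13.8 CPM there, with very few counts in Stroma1, against 71.3 and 70.2 CPM in MSC. Slirp, which stabilises mitochondrial messages, was higher in Pro-osteoblast with TMM (1.57, adjusted p = 5.6e-05), and stood at 0.35 with total counts, where it was not called. It had 160 and 55.1 CPM there, against 49.4 and 74.1 CPM in MSC. As raw CPM it was thus above MSC in Stroma1 and below it in Stroma2. Ssbp1, the single-strand binding protein of mitochondrial DNA, was called higher late on the chondrocyte path (1.20 ± 0.35, adjusted p = 0.017). Of the subunits of the mitochondrial ribosome, 50 of 77 were tested in the classes: none was called by edgeR in Adipocyte progenitor or Osteoblast progenitor, where 1 and 3 were higher and none lower at an unadjusted p under 0.05. DESeq2 called none of the 23 and 34 of them to which it gave an adjusted p. In Pro-osteoblast 13 were called higher, where 19.9% of all genes were, and 1 lower with TMM (median 0.52), against none higher and 15 lower with total counts (408 and 4007 of all 6229 genes). The gene called lower with TMM was Mrps6, a small-subunit protein, at -3.23, and it stood at -4.49 with total counts. Its exons share 159 of 1533 bases with Slc5a3 on the same strand, so its counts are uncertain.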

How the data were processed

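The deposited table holds whole-number counts per gene and barcode, which the authors made from inDrops reads; Bowtie 1.1.1 and GRCm38 are named in the submitters' processing notes without their roles. How reads were counted (the tool, its use of molecular identifiers and strand, the annotation, and reads that match nuclear copies of mt- genes or processed copies of subunit genes) is not given in the sources used here. Deposited beside the counts, per the file headers, were the mitochondrial fraction of each barcode and pseudotime fractions on 3 paths, which are ranks from 0 to 1, with labels of sample, library, filter and class. How doublets were treated before deposit is not given in the sources used here, and none were removed for these results.

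Counts of passing cells were summed per sample and class, or per sample and segment of a path, since a cell is no replicate. Only the 6 of 7 classes with 15 or more cells in both samples were tested. The test was edgeR 4.0.16 in R 4.3.3, after TMM normalization and filterByExpr with a minimum count of 10, by quasi-likelihood tests with terms for class and sample. Every class held cells of both samples, so the sample pairs the sums and is a block. The Benjamini-Hochberg adjustment ran over all genes tested, and the SE is the size of the log2 change over the square root of F. Paths were tested between the late and early of 3 equal segments. CPM, shares and ratios came from raw sums. Counts were also simulated for Osteoblast progenitor against MSC, with 1 common dispersion and 50 genes changed at each size, drawn at random from all tested genes. Among 5576 genes the test recovered 8% of 1.5-fold, 38% of 2-fold, 72% of 3-fold and 86% of 4-fold changes, with 5 false calls. Changed genes lost to the count filter were counted as not recovered. These rates are for genes of all levels and do not carry over to the members, since most mt- genes have far higher counts.

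The rule for naming takes all tested mt- genes, the 4 highest and 4 lowest called nuclear members of a comparison, 5 pairs of subunit forms, and the member of each complex with the highest CPM; the text describes those that matter and gives the rest as counts and ranges. Other members named where up to 12 were called were chosen after their values were seen. The members, gene lists and tests were chosen with earlier results of these data known. Gene positions are from GENCODE M21. The settings changed were DESeq2 1.42.0, RLE factors, no filter on low counts, a minimum of 1000 counts a cell, cells under 10% mt- counts, each barcode once, library sizes without mt- genes, 2 segments in place of 3, the mean of the other classes in place of MSC, no term for sample, 1 sample alone, and class by the vote of 15 neighbours. The neighbours were found in 30 principal components of 2000 variable genes without the members (scikit-learn 1.9.0, Python 3.11.15). Scaling by total counts and leaving Col1a1, Col1a2 and Sparc out of the total were added after seeing the data. Intervals on shares of cells are Clopper-Pearson intervals and cover counting error only.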

Additional observations from a re-analysis of the deposited data

Results flagged for a closer look

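The mt- share of counts moved in opposite directions on 2 of the authors' paths. The late segment minus the early segment was -0.319 percentage points on the adipocyte path as the mean of 2 samples, with -0.41 in Stroma1 and -0.23 in Stroma2, and 2.61 percentage points on the chondrocyte path, with 2.75 and 2.46. The nuclear share did the same, at -0.145 on the adipocyte path (-0.112 and -0.179) and 0.23 on the chondrocyte path (0.299 and 0.16). Each direction held in both samples for these raw shares. On the TMM scale the median log2 change of the 12 tested mt- genes on the adipocyte path was 0.12, with 2 called higher and none lower by edgeR (none at an unadjusted p under 0.05). The early segments share cells, and the difference between the paths was not tested.

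Barcodes outside the authors' filter also held counts of these genes. In barcodes that did not pass, the 13 mt- genes took 6.17% of counts in Stroma1 (585 barcodes) and 5.90% in Stroma2 (1675 barcodes), against 4.66% and 4.32% in passing cells. The 89 nuclear members took 2.89% and 3.02% there, against 1.16% and 1.06% in passing cells. The barcodes without a filter label, 2232 in Stroma1 and 7689 in Stroma2 with medians of 192 and 167 counts, had mt- shares of 79.5% and 64.2%.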

How the results depend on the processing

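Without Stroma1 or without Stroma2, the shares and ratios are those of the other sample, already given, and no test is left; of the 182 named gene changes 10 moved by more than the spread without Stroma1 and 22 without Stroma2. Library sizes without mt- genes left the call of all 182 named gene changes as it was, and keeping each barcode once left that of 178. Of the 182, 98 were called in the main fit. Direction was compared only for changes called in the main fit or under the changed setting. Shares of all genes called are given only for the main fit and for total counts. Counts by DESeq2, at an unadjusted p or under another setting have no such share beside them. With DESeq2 the called nuclear members were 0 in Pre-adipocyte, 1 in Osteoblast progenitor, 26 in Pro-osteoblast, 9, 1 and 0 on the osteoblast, chondrocyte and adipocyte paths, and the mt- members were 0 in Pre-adipocyte and on the adipocyte path. RLE factors left 1 mt- gene in Pre-adipocyte. Without the filter on low counts the nuclear counts were 1 in Osteoblast progenitor, 2 in Pre-osteoblast/chondrocyte, 29 in Pro-osteoblast, 4 on the chondrocyte and 1 on the adipocyte path, with 5 mt- genes in Pre-adipocyte and 1 on the adipocyte path. With at least 1000 counts a cell the mt- shares were 4.01% in Adipocyte progenitor and 4.30% in MSC, the nuclear share of MSC was 1.18%, the ratio of Osteoblast progenitor was 0.44, 2 nuclear genes were called in Pre-adipocyte, and 0 mt- and 1 nuclear gene on the adipocyte path. Among cells under 10% mt- counts the mt- shares were 4.00% in Adipocyte progenitor, 6.11% in Osteoblast progenitor and 4.19% in MSC, the ratio of Osteoblast progenitor was 0.30, and on the adipocyte path 2 nuclear genes were called, 1 higher and 1 lower. With classes by vote, under which 63.4% of Osteoblast progenitor cells kept their class, the mt- shares were 4.07% in Adipocyte progenitor and 4.48% in MSC, the nuclear share of MSC was 1.18%, the ratio of Osteoblast progenitor was 0.39 and 0 nuclear genes were called in Pre-adipocyte. With each barcode once the mt- shares were 4.05% in Adipocyte progenitor and 4.32% in MSC. Between 2 segments of a path, 1 mt- and 9 nuclear genes were called on the osteoblast path, 5 nuclear on the chondrocyte, and 0 mt- and 1 nuclear on the adipocyte path.

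Against the mean of the other tested classes in place of MSC, 10 mt- and 2 nuclear genes were called lower in Adipocyte progenitor, 11 and 23 lower in Pre-adipocyte, and 1 nuclear gene higher in Osteoblast progenitor. The share of all genes called against this mean is not given here, and the shares against MSC do not apply. Whether these counts exceed that share therefore cannot be told. The changes turned below 0 for mt-Atp6 (-0.35), mt-Co1 (-0.44), mt-Co2 (-0.38), mt-Co3 (-0.43), mt-Cytb (-0.38), mt-Nd3 (-0.35) and mt-Nd4 (-0.43) in Adipocyte progenitor and for Cox4i1 (-0.60) in Pre-adipocyte. Without the replicate block for sample, 1 mt- gene was called in Pre-adipocyte and 0 mt- and 1 nuclear on the adipocyte path, and no other count moved by over 1.5 times.

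With total counts, 8 mt- and 18 nuclear genes were called in Pre-adipocyte, 7 nuclear in Pre-osteoblast/chondrocyte, 4 mt- and 39 nuclear in Pro-osteoblast, 0 mt- and 9 nuclear on the osteoblast path, and 3 mt- and 4 nuclear on the adipocyte path. The calls over all genes on this scale are given with each of these comparisons. Changes that turned below 0 in Pro-osteoblast were mt-Atp6 -0.26, mt-Co1 -0.10, mt-Co2 -0.081, mt-Co3 -0.29, mt-Cytb -0.18, mt-Nd1 -0.18, mt-Nd2 -0.38, mt-Nd3 -0.61, mt-Nd4 -0.059, mt-Nd4l -0.21, mt-Nd5 -0.38, Cox4i1 -0.025, Cox7a2 -0.31, Cox8a -0.53, Ndufa4 -0.70, Sdha -1.16 and Atp5g3 -0.86. On the adipocyte path they were mt-Atp6 -0.039 and mt-Co3 -0.0048, and on the osteoblast path mt-Nd5 -0.0024. With Col1a1, Col1a2 and Sparc left out of the total, the mt- shares were 4.10% in Adipocyte progenitor, 7.43% in Pro-osteoblast and 4.37% in MSC, and the nuclear shares 1.55% in Pre-osteoblast/chondrocyte, 1.83% in Pro-osteoblast and 1.19% in MSC. The median of all genes on total counts is given above for Pre-adipocyte, Pre-osteoblast/chondrocyte, Pro-osteoblast and the osteoblast path. It was -0.16 in Adipocyte progenitor, -0.03 in Osteoblast progenitor, -0.06 on the chondrocyte path and -0.23 on the adipocyte path. With TMM these medians were 0.01, 0.01, -0.002 and -0.02. The cause of the other differences was not tested. Depth limits the members with few counts, of which 14 of 102 could not be tested in the classes.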

Other observations

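Genes that feed the respiratory chain did not all move with its subunits. Pdk4, the kinase that shuts pyruvate out of the citric acid cycle, was higher in Pre-adipocyte (1.12), in Osteoblast progenitor (1.35) and late on the chondrocyte path (1.11), and lower in Pro-osteoblast (-1.21 with TMM, -2.46 with total counts), as log2 changes called by edgeR. Ogdh and Idh2, enzymes that act on intermediates of the cycle, were called higher in Pro-osteoblast with TMM (1.32 and 1.21), against 0.083 and -0.016 with total counts, on which neither was called. Of the 5 tested regulators of mitochondrial biogenesis, Nfe2l2, an activator of antioxidant genes, was higher in Pre-adipocyte (1.03) and lower in Osteoblast progenitor (-0.97) and Pro-osteoblast (-1.13). Yy1, whose binding letters were searched in the promoters, was higher in Pre-adipocyte (1.27), the class in which nuclear members were called lower. With total counts Yy1 stood at 0.95 there (adjusted p = 0.068 by edgeR). Gabpb1, a gene of GABP, was called higher in Pro-osteoblast with TMM (1.98, adjusted p = 0.023 by edgeR), where nuclear members were called higher on that scale. It had 42.7 and 13.8 CPM, against 13.7 and 10.7 CPM in MSC, and with total counts it stood at 0.79 and was not called. These genes were picked after their values were seen, and a link between any of them and the members was not tested.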
